A study of Mus musculus with 24 samples.

Results

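Pancreatic stellate cells (PSC) that were cultured without cancer cells on the inserts of the inverse model were compared between 72 h and 24 h. The members were picked by sample title and were the 3 inverse 72 h control and the 3 inverse 24 h control libraries, which made 6 of the 24 libraries of the series. The series covered 8 groups of 3 libraries each, formed by a standard and an inverse culture model, 24 h and 72 h, and PSC either co-cultured with KPC cells (a mouse pancreatic cancer cell line) or kept as mono-cultured controls. Both groups compared here held PSC of WT genotype at passage 1 or 2 with the treatment "control", that is, no KPC cells on the other side of the membrane. The cells came from pooled pancreata of young C57BL/6J mice of both sexes, and the study counted 3 biological replicates per group without stating that each replicate was an isolation of its own, so p-values measure only the spread between these libraries. PSC were seeded on a porous membrane in Advanced DMEM/F-12 medium with serum, time was counted from the day after seeding, and the medium was not replaced up to harvest. Time in culture, cell density and the age of the medium therefore cannot be told apart. Gene expression was measured by polyA RNA sequencing and is given as FPKM, the fragments counted on a gene per kilobase of transcript and scaled to the total of counted fragments, a level per length that can be compared between genes.

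PSC are mesenchymal cells of the exocrine pancreas. In the healthy gland they are quiescent, store vitamin A in lipid droplets and divide little, and after injury or when grown on plastic they turn into myofibroblast-like cells that express alpha-smooth muscle actin, contract, divide and secrete collagen-rich matrix. In pancreatic cancer, fibroblasts of this kind are usually described as myofibroblastic (myCAF), inflammatory (iCAF) or antigen-presenting (apCAF).

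The 6 libraries held 15932737 to 24798761 counted fragments, as recovered from the FPKM values, and 12750 to 13307 genes above an FPKM of 1. Defining genes of mesenchymal cells were high throughout, with Vim at 786 to 1397, Col1a1 at 4918 to 7919, Pdgfrb at 137 to 182 and Acta2 at 763 to 2922 FPKM. Of the genes classically linked to stellate cells, Des lay at 26.2 to 70.4 FPKM, whereas Gfap did not exceed 0.237 and Lrat, the enzyme that esterifies vitamin A for storage, was listed at 0 in every library. Markers of duct epithelium and KPC cells were at or near 0, since Krt8, Krt18 and Cdh1 were listed at 0, Krt19 did not exceed 0.370 and Epcam did not exceed 0.123 FPKM. Endothelial Cdh5 was listed at 0 as well. Of the acinar markers, Cpa1, Amy2a5 and Ctrb1 were listed at 0, but Cela1 lay at 9.13 to 18.1 FPKM, and of the mesothelial markers Msln was listed at 0, but Wt1 lay at 19.6 to 33.5 FPKM. The summed level of the 5 acinar markers was 9.21 to 15.1 FPKM at 24 h and 15.2 to 18.1 FPKM at 72 h, and that of the 4 mesothelial markers 20.2 to 24.3 and 24.0 to 33.8 FPKM. Transcripts of macrophages were present in all 6 libraries, with Ptprc (CD45) at 0.346 to 3.13 and Adgre1 (F4/80) at 0.788 to 3.55 FPKM. Lyz2 lay higher, at 53.8 to 172 FPKM, and Csf1r, Cd68 and Cd14 reached 7.86, 11.7 and 8.25 FPKM. The summed level of the 6 macrophage markers was 64.0 to 74.4 FPKM at 24 h and 110.3 to 204.6 FPKM at 72 h.

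Mono-cultured PSC of the inverse model changed broadly between 24 h and 72 h. Of 13092 genes tested, 2516 (19.2%) were differentially expressed genes (DEG), which means an adjusted p under 0.05 in limma's moderated test. Of these, 1331 (10.2% of the genes tested) were up-regulated and 1185 (9.05%) down-regulated at 72 h. Counts of list members given below are to be read against these shares. Lipid storage, sterol synthesis, complement and macrophage genes were the lists with the largest shares of up-regulated members, and mitosis, ribosomal protein and smooth muscle contractile genes were those with the largest shares of down-regulated members. Most changes were modest in size, with a median absolute log2 fold change of 0.68 among the DEG and 567 DEG beyond 1, of which 341 were up-regulated and 226 down-regulated. The median log2 fold change of all genes tested was 0.04. The FPKM ranges of the groups did not overlap for 2511 of the DEG, while 39.7% of all genes tested had groups that did not overlap, 22.8% with the higher values at 72 h and 16.9% with the higher values at 24 h.

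The count of DEG depended on single libraries. It was 1573 without 24 h replicate 1, 1243 without 24 h replicate 2 and 1527 without 72 h replicate 1. Scaling the libraries by the median of gene ratios gave 2737 DEG, of which 41.8% were up-regulated, against 52.9% as reported. When the spread was estimated from all 12 control libraries of both models, 88 genes passed, 12 of them up-regulated and 76 down-regulated, at a median standard error of 0.23 on the log2 scale against 0.15 in the 6 libraries. All gene counts below rest on the spread within the 6 libraries.

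The first principal component of the 6 libraries carried 48.9% of the variance and separated the times, with scores of -29.3, -30.5 and -23.5 for the 24 h replicates and 33.6, 21.9 and 27.8 for the 72 h replicates. The 72 h replicate 2 library had the score nearest to the 24 h group. Pearson's r between libraries, across genes on the log2 scale, was 0.992 to 0.994 within 24 h, 0.990 to 0.991 within 72 h and 0.985 to 0.988 between the times.

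**Figure D1:**
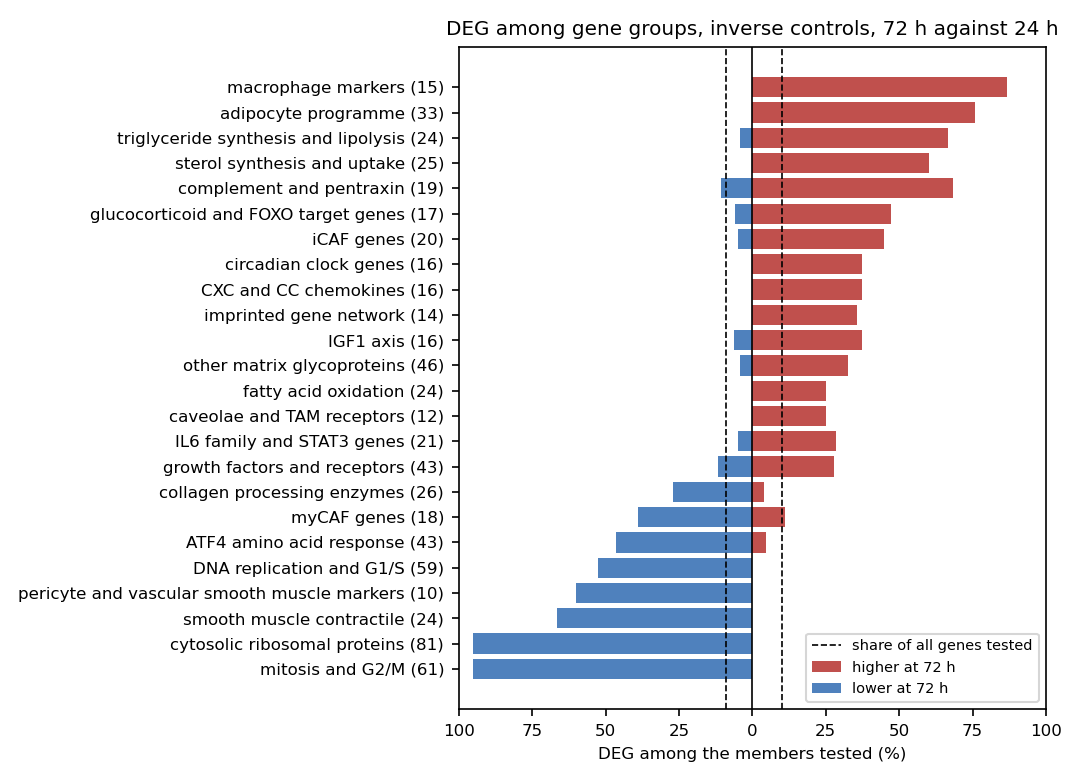
Share of DEG (%) among the tested members of each gene group, with up-regulated members to the right and down-regulated members to the left of 0. The number tested is in brackets, and the groups shown are those with at least 10 members tested and at least 25% of them changed in 1 direction. Dashed lines mark the shares among all genes tested, 10.2% up-regulated and 9.05% down-regulated. Mitosis and ribosomal protein genes reach beyond 95% to the left, and macrophage and adipocyte genes reach furthest to the right.

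The gene list with the largest median rise was the adipocyte programme. Adipocytes and quiescent stellate cells both keep triglycerides in droplets coated by perilipins, and PPARG and CEBPA are the transcription factors that drive fat cell genes. Of 33 members tested, 25 were up-regulated and none was down-regulated, with a median log2 fold change of 1.43 against 0.04 over all genes. Their summed level was 1506 to 2092 FPKM at 24 h and 3215 to 4848 FPKM at 72 h. In bulk RNA, more cells of a type and more RNA per cell cannot be told apart.

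Plin1, the perilipin that coats lipid droplets of fat cells (chromosome 7, 79720218 to 79732903, minus strand), lay at 54.7, 51.2 and 84.5 FPKM in the 24 h replicates 1, 2 and 3 and at 343, 204 and 298 FPKM in the 72 h replicates. All 72 h libraries were above all 24 h libraries, replicate 2 being the lowest of the 72 h group, and the log2 fold change was 2.14 ± 0.23 (SE, adjusted p = 0.00176). Adipoq encodes the fat cell hormone adiponectin. Its level was 21.5, 19.3 and 31.8 FPKM at 24 h and 125, 44.3 and 115 FPKM at 72 h, a log2 fold change of 1.84 ± 0.36 (adjusted p = 0.0102). The 72 h replicate 2 library lay closest to the 24 h group here, too. For the fatty acid transporter Cd36, the 24 h libraries held 23.9, 21.7 and 29.6 and the 72 h libraries 109, 49.3 and 123 FPKM (log2 fold change 1.79 ± 0.30). The lipid chaperone Fabp4 rose from 64.4, 68.6 and 98.9 to 311, 124 and 254 FPKM (log2 fold change 1.49 ± 0.31). In both genes 72 h replicate 2 again stood between the 24 h libraries and the other 72 h libraries.

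Of the upstream regulators, Cebpa rose moderately from 137, 145 and 162 to 274, 194 and 263 FPKM (log2 fold change 0.70, adjusted p = 0.010). Pparg had a log2 fold change of 0.49 ± 0.15 and missed the limit (adjusted p = 0.0557), although its 24 h libraries (38.7, 39.5 and 43.3 FPKM) all lay below its 72 h libraries (63.1, 44.01 and 66.6 FPKM). The carbohydrate-sensing factor Mlxipl (ChREBP) was among the largest rises of any protein-coding gene, from 0.512, 0.426 and 1.42 to 6.73, 5.13 and 5.47 FPKM (log2 fold change 2.36 ± 0.30). Thrsp, a lipogenic gene, rose by 2.08 and Klf15 by 1.09 on the log2 scale. Of the other fat cell hormones, leptin (Lep) did not exceed 0.989 FPKM in any library and resistin (Retn) was not called at a log2 fold change of 1.43 (adjusted p = 0.0585).

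The enzymes of triglyceride synthesis and breakdown rose together. Of 24 members tested, 16 were up-regulated and 1 was down-regulated, with a median log2 fold change of 1.07. Acsl1, which activates long-chain fatty acids, rose from 63.4, 49.1 and 80.4 FPKM to 357, 219.6 and 341 FPKM (log2 fold change 2.24 ± 0.22, adjusted p = 0.00175). Dgat2, which attaches the last fatty acid of a triglyceride, rose from 38.5, 36.8 and 45.01 to 188, 109.7 and 185 FPKM (log2 fold change 1.95 ± 0.20). Both genes were separated between the times by a wide gap. Lipolytic enzymes moved in the same direction as the synthetic ones. Log2 fold changes were 1.84 for hormone-sensitive lipase (Lipe), 1.60 for adipose triglyceride lipase (Pnpla2) and 1.55 for monoglyceride lipase (Mgll). The single down-regulated member was Agpat4 (28.2, 30.98 and 32.5 against 19.9, 18.2 and 23.6 FPKM, log2 fold change -0.56).

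Fatty acid uptake and synthesis followed. Lipoprotein lipase (Lpl), which releases fatty acids from lipoproteins, stood at 436, 579 and 779 FPKM at 24 h and at 1596, 1243 and 1608 FPKM at 72 h (log2 fold change 1.34 ± 0.20). Fasn, Scd1 and Acaca, the enzymes of fatty acid synthesis and desaturation, had log2 fold changes of 1.46, 1.35 and 1.10. Fatty acid oxidation changed less, with 6 of 24 members up-regulated, none down-regulated and a median of 0.24. Its count fell to 3 without 24 h replicate 1, 72 h replicate 1 or 72 h replicate 3. Cpt1a, the gate of mitochondrial fatty acid entry, rose by 0.34 and Cpt2 by 0.64 on the log2 scale.

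**Figure D2:**
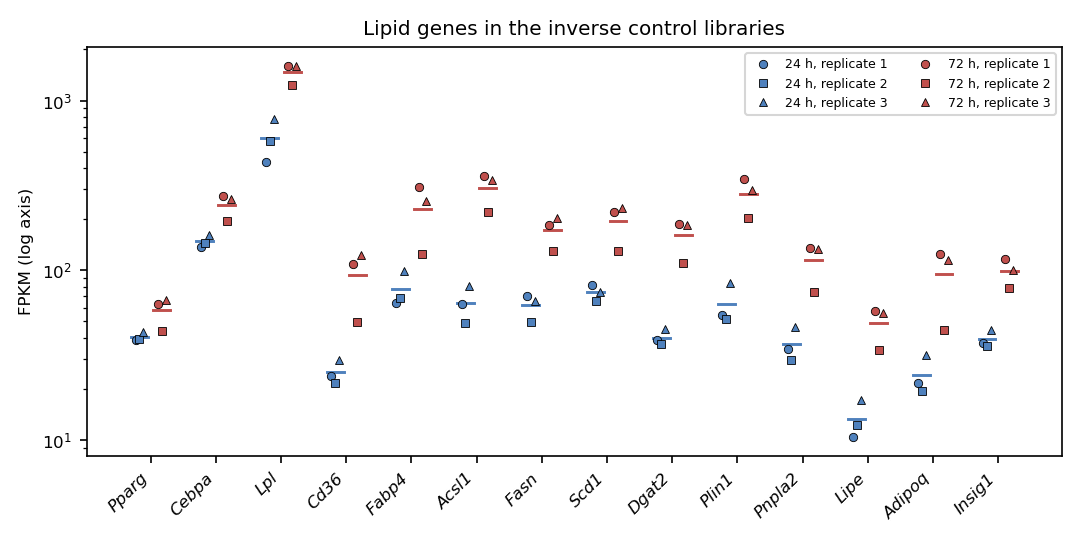
FPKM (log axis) of 14 lipid genes in the 6 inverse control libraries, with 24 h in blue and 72 h in red, the marker shape giving the replicate number and the bar the mean of 3. Apart from Pparg, the genes shown are DEG, and in every gene the 72 h points lie above the 24 h points. The 72 h replicate 2 library (red square) is the lowest red point in all 14 genes.

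Cholesterol synthesis and uptake genes, which are controlled by the factor SREBP2, also rose. Of 25 members tested, 15 were up-regulated and none was down-regulated, with a median log2 fold change of 0.60. The count was 9 without 24 h replicate 1. Insig1, the sterol-sensing anchor of the SREBP pathway, rose most, from 37.1, 35.8 and 44.5 to 117, 78.1 and 100.6 FPKM (log2 fold change 1.31 ± 0.15, adjusted p = 0.00207). Its groups were clearly separated. The factor gene Srebf2 itself rose by 0.46 and squalene epoxidase (Sqle) by 0.66 on the log2 scale.

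Smooth muscle contractile genes, the hallmark of activated PSC, were lower at 72 h. Of 24 members tested, 16 were down-regulated and none was up-regulated, with a median log2 fold change of -0.84. The summed level of the list was 13142 to 14194 FPKM at 24 h and 5435 to 8503 FPKM at 72 h. Acta2, which encodes alpha-smooth muscle actin (chromosome 19, 34241090 to 34255590, minus strand), lay at 2835, 2790.4 and 2922 FPKM in the 24 h replicates and at 763, 1347 and 1137 FPKM in the 72 h replicates. The 24 h libraries were nearly equal and all above the 72 h libraries, among which replicate 1 was lowest (log2 fold change -1.43 ± 0.19, adjusted p = 0.00263). Calponin (Cnn1), an actin-binding regulator of contraction, showed the same order, at 563, 597 and 609 against 186, 314 and 233 FPKM (log2 fold change -1.30 ± 0.17). Enteric actin (Actg2), tropomyosin (Tpm2) and myosin light chain (Myl9) fell by 1.34, 1.19 and 1.11 on the log2 scale, and transgelin (Tagln) fell by 0.91.

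The smooth muscle myosin heavy chain Myh11 was not called, since 72 h replicate 2 (65.4, 168 and 116 FPKM over the 3 replicates) overlapped with the 24 h libraries (163, 149 and 192 FPKM). The intermediate filament genes fell less than the actin genes. Vimentin (Vim) lay at 1374, 1320.0 and 1397 against 786, 996 and 983 FPKM (log2 fold change -0.57, adjusted p = 0.011), and desmin (Des) at 49.2, 53.4 and 70.4 against 26.2, 34.2 and 35.7 FPKM (log2 fold change -0.83). Markers of pericytes and vascular smooth muscle share several of these genes. Of 10 tested, 6 were down-regulated, whereas the pericyte receptor Notch3 (log2 fold change 0.20) was not called.

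Targets of YAP and SRF, factors that respond to stretch and actin polymerisation, fell less as a list. Their summed level was 6926 to 7570 FPKM at 24 h and 5732 to 6457 FPKM at 72 h. Groups did not overlap for 9 of 26 members lower at 72 h and 5 higher, against 16.9% and 22.8% of all genes tested. Of the 26 tested, 1 (3.85%) was up-regulated and 2 (7.69%) were down-regulated, with a median log2 fold change of -0.19. Connective tissue growth factor (Ccn2) was one of the 2, at 976, 887 and 1362 against 509, 707 and 809.5 FPKM (log2 fold change -0.67, adjusted p = 0.0493). Of 27 genes of TGF-beta and activin signalling, 4 (14.8%) were up-regulated and 6 (22.2%) down-regulated, against 10.2% and 9.05% of all genes tested. The transcript of the ligand Tgfb1 lay at 30.7, 25.7 and 30.1 FPKM at 24 h and 27.5, 27.1 and 28.2 FPKM at 72 h and was not called (adjusted p = 0.718). The receptor Tgfbr2 and the mediator Smad3 rose by 0.53 and 0.50 on the log2 scale. The inhibitory SMADs, which the pathways are known to induce as feedback, fell. Smad6, the inhibitory SMAD of BMP signalling, had one of the smallest adjusted p of all genes (0.00122) and stood at 333, 353 and 321 against 144, 150.03 and 171 FPKM (log2 fold change -1.11 ± 0.09). Smad7, its counterpart in TGF-beta signalling, fell by 0.72 on the log2 scale.

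Among secreted antagonists of the BMP and Wnt pathways, Grem1 and Sfrp1 rose by 1.06 and 1.02, while the BMP antagonist Nog fell by 0.87 and the activin antagonist Fst by 0.69 on the log2 scale. Over the BMP and Wnt list as a whole, 5 of 31 members (16.1%) were up-regulated and 3 (9.68%) down-regulated. The shares among all genes tested were 10.2% and 9.05%.

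Matrix genes were mixed. Of 26 collagen chains tested, 5 were up-regulated and none was down-regulated (median log2 fold change 0.12). The count was 3 without 24 h replicate 2 or 72 h replicate 1. Col1a1, the most expressed chain of type I collagen, lay at 7919, 5877 and 7688 FPKM at 24 h and 5200.0, 7248 and 4918 FPKM at 72 h, and the groups overlapped (adjusted p = 0.268). With overlapping groups, no direction can be given for its log2 fold change of -0.32. It became 0.027 under quantile normalization, which gives genes of equal rank equal values and so bears little on the highest genes. Its partner chain Col1a2 was not called either, at 4405, 3927 and 4272 against 3314, 4132 and 3136 FPKM (log2 fold change -0.26, adjusted p = 0.208), but was called without 72 h replicate 2 (-0.38). Col3a1, the chain of type III collagen, rose from 8526, 8591 and 7699 to 13104, 12699 and 9900.2 FPKM (log2 fold change 0.52, adjusted p = 0.0479). Its value under quantile normalization was 0.00, to which the same limit of rank applies. Col15a1, a basement membrane collagen, rose by 0.73 and the minor fibrillar chains Col5a3 and Col27a1 rose by 0.96 and 1.33 on the log2 scale.

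Enzymes that fold and cross-link collagen tended the other way, with 7 of 26 down-regulated and 1 up-regulated, but the count of 7 was 1 without 24 h replicate 1 or 2, 3 without 72 h replicate 1 and 2 without 72 h replicate 3. The collagen chaperone Serpinh1 (HSP47) went from 2605, 2678 and 2454 to 1831, 1853 and 1703 FPKM (log2 fold change -0.52, adjusted p = 0.00935), and lysyl oxidase (Lox) fell by 0.48 on the log2 scale.

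Other matrix glycoproteins rose more often than they fell, with 15 of 46 up-regulated and 2 down-regulated (median 0.26). Tenascin X (Tnxb) rose from 14.2, 8.82 and 9.77 to 41.4, 33.9 and 37.9 FPKM (log2 fold change 1.77 ± 0.17, adjusted p = 0.00175), while tenascin C (Tnc), a matrix protein of wounds and tumours, fell from 50.9, 40.6 and 34.3 to 19.4, 29.2 and 21.4 FPKM (log2 fold change -0.84 ± 0.18). The 2 tenascins thus moved in opposite directions in the same libraries. Smoc1, Spon1, Fbln1 and Mfap4 rose by 2.02, 1.26, 1.13 and 1.06 on the log2 scale. Fibronectin (Fn1) was measured at 3054, 1935 and 2638 and 3248, 3618 and 2992 FPKM and was not called (adjusted p = 0.145).

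Among proteoglycans and hyaluronan genes, 5 of 35 members (14.3%) rose and 5 (14.3%) fell, against 10.2% and 9.05% of all genes tested. The 5 that rose became 3 when any library but 72 h replicate 2 was left out, and the 5 that fell became 2 without 24 h replicate 1 and 3 without 24 h replicate 2 or 72 h replicate 1. Syndecan 4 (Sdc4), a cell surface heparan sulfate carrier, lay at 186, 192 and 183 against 149, 123 and 113 FPKM (log2 fold change -0.55, adjusted p = 0.0108). The large proteoglycan versican (Vcan) and the chondroitin sulfotransferase Chst11 had log2 fold changes of 0.25 and 0.11 and were not called (adjusted p = 0.559 and 0.723), with groups that overlapped in both. In the study's qPCR, Vcan, Chst11, Fn1 and also Sdc4 did not differ significantly between 24 h and 72 h controls. The hyaluronan receptor Cd44 fell by 0.55, and podocan (Podn) rose by 1.18 on the log2 scale.

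Matrix proteases rose more often than they fell, with 8 of 34 up-regulated and 2 down-regulated. Stromelysin (Mmp3) rose from 15.1, 15.9 and 7.14 to 66.5, 40.4 and 33.7 FPKM (log2 fold change 1.86 ± 0.32), the gelatinase Mmp2 by 0.70 and the aggrecanase relative Adamts15 by 1.49 ± 0.12 on the log2 scale. The urokinase receptor Plaur, which localises plasminogen activation to the cell surface, was among the members that fell (40.4, 48.8 and 35.6 against 21.9, 20.8 and 20.3 FPKM, log2 fold change -0.96).

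Cell cycle genes fell almost as a block. Of 61 genes of mitosis and G2/M tested, 58 were down-regulated and none was up-regulated, with a median log2 fold change of -1.34 and a summed level of 1034 to 1473 FPKM at 24 h against 506 to 618 FPKM at 72 h. The 3 members that were not called were Pttg1 (-0.34), Cdc25b (-0.42) and Kif18b (-0.97). The mitotic kinase Plk1 lay at 32.5, 30.7 and 28.6 FPKM in the 24 h replicates and at 6.26, 11.3 and 8.26 FPKM in the 72 h replicates (log2 fold change -1.81 ± 0.19, adjusted p = 0.00175). Cyclin B1 (Ccnb1), which with CDK1 starts mitosis, lay at 29.2, 34.04 and 19.2 against 6.28, 10.1 and 6.88 FPKM (log2 fold change -1.75 ± 0.23). In both genes the groups were well apart, and 72 h replicate 2 was again nearest to 24 h. Top2a, Mki67 and Cdk1 fell by 1.51, 1.10 and 1.35 on the log2 scale.

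Genes of DNA replication and the G1/S transition fell less often. Of 59 tested, 31 were down-regulated and none was up-regulated, with a median of -0.70. The count was 14 and 12 without 24 h replicates 1 and 2, and 19 and 16 without 72 h replicates 1 and 3. Ribonucleotide reductase (Rrm2), which supplies DNA building blocks, lay at 62.3, 61.3 and 36.6 against 15.3, 16.5 and 16.2 FPKM (log2 fold change -1.67 ± 0.19). The helicase subunit Mcm5 fell by 1.42, the replication clamp Pcna by 0.72 on the log2 scale. Cyclin D1 (Ccnd1) was not called, at 8.97, 8.07 and 8.58 and 7.76, 11.1 and 15.5 FPKM.

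The promoters of these genes are shown because many genes transcribed at G2/M carry a cell cycle homology region (CHR, letters TTTGAA) close to CCAAT boxes. RefSeq promoter windows of 250 bases before the start (GRCm38.p6) were found for 47 of the 58 down-regulated G2/M members, which had 49 windows. TTTGAA occurred on either strand in 17 of these windows (34.7%), CCAAT in 36 (73.5%) and both in 16 (32.7%). Among all 32851 promoter windows the shares were 16.0%, 33.8% and 5.55%, and among the 12117 windows of genes tested 10.4%, 35.4% and 3.94%. The 27 windows of down-regulated G1/S members held TTTGAA in 2 (7.41%) and CCAAT in 20 (74.1%). Genes of a single chromosome were left out of the choice of windows below. The windows belong to the 3 remaining down-regulated G2/M genes with the largest fall among those holding both motifs. They are written 5′ to 3′ on the strand of the gene, and capitals mark a match to either motif, read on either strand.
Ube2c, chr2:164769679-164769928, plus strand: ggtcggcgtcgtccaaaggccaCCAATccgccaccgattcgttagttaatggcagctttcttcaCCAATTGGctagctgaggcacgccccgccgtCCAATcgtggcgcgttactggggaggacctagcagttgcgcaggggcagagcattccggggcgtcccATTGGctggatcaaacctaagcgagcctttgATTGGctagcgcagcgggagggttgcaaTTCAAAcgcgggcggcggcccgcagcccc
Ccnb2, chr9:70421555-70421804, minus strand: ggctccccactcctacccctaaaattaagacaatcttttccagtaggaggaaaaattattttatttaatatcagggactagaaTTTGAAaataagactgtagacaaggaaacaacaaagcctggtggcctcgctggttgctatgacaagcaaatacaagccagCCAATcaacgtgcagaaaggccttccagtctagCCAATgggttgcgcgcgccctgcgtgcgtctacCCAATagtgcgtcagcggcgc
Ncapg, chr5:45669675-45669924, plus strand: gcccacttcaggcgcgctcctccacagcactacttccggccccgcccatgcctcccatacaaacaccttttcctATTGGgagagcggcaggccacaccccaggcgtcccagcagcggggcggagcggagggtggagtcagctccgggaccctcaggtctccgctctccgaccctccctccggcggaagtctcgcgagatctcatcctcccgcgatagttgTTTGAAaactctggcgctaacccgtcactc

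Ube2c, the ubiquitin-conjugating enzyme that serves the anaphase-promoting complex, held the letters 29 bases before the start and 6 matches to CCAAT, and its transcript lay at 30.1, 32.9 and 22.01 against 8.41, 7.02 and 7.003 FPKM (log2 fold change -1.84 ± 0.16). Cyclin B2 (Ccnb2), a partner of CDK1, had TTTGAA 167 bases before the start and fell from 16.4, 17.3 and 14.96 to 4.49, 5.94 and 3.37 FPKM (log2 fold change -1.74 ± 0.19). The condensin subunit Ncapg had it 30 bases before the start and fell from 6.84, 6.92 and 4.895 to 1.12, 2.04 and 2.07 FPKM (log2 fold change -1.60 ± 0.24). A match of letters is a description and does not show that a factor binds there.

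Inhibitors of the cell cycle changed singly rather than together. Of 32 cell cycle inhibitors and p53 target genes tested, 7 were up-regulated and 2 down-regulated, and the 7 became 3 without 24 h replicate 1, 24 h replicate 2 or 72 h replicate 1. The growth arrest gene Gas1 rose from 113, 121 and 117 to 439, 264 and 243 FPKM (log2 fold change 1.37 ± 0.20, adjusted p = 0.00319). Cdkn1c (p57) rose by 0.84 and the retinoblastoma relative Rbl2 (p130) by 0.62 on the log2 scale. Cdkn1a (p21), the classical p53 target, stood at 261, 292 and 256 and 299, 292 and 275 FPKM and was not called (adjusted p = 0.460).

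**Figure D3:**
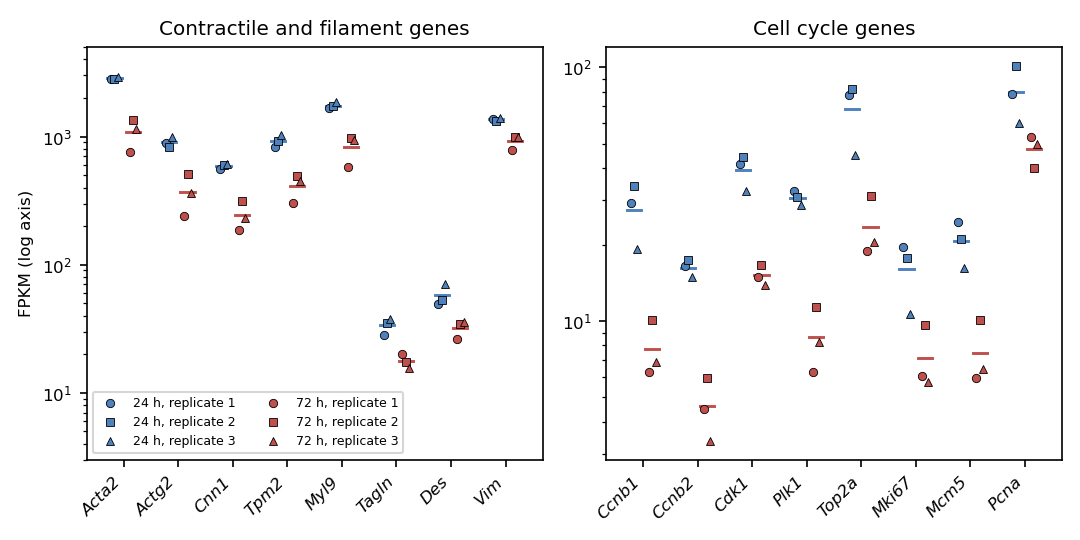
FPKM (log axes) of contractile and filament genes (left) and of cell cycle genes (right) in the 6 inverse control libraries, with 24 h in blue and 72 h in red, the shape giving the replicate number and the bar the mean of 3. In all 16 genes the 24 h points lie above the 72 h points. Acta2 lies between 2790.4 and 2922 FPKM at 24 h and between 763 and 1347 FPKM at 72 h, and Plk1 between 28.6 and 32.5 against 6.26 to 11.3 FPKM.

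Cytosolic ribosomal protein genes were lower at 72 h with few exceptions. Of 81 tested, 77 were down-regulated and none was up-regulated, and the median log2 fold change was -0.76. Their summed level was 40469 to 42912 FPKM at 24 h and 22762 to 25865 FPKM at 72 h. Rpl41, the smallest ribosomal protein, lay at 941, 876 and 797 against 488, 349 and 423 FPKM (log2 fold change -1.06 ± 0.13, adjusted p = 0.00239). The list was the one least dependent on the libraries used, with 75 to 77 down-regulated members when any single library was left out. It also kept 40 down-regulated members when the spread came from all 12 control libraries, a setting in which no other list had more than 1 member called in either direction. Members not called included Rpl24 (-0.22, and 0.26 without 72 h replicate 1), Rpl7a (-0.57) and Rps27, the last of which jumped between 143, 137 and 34.4 FPKM at 24 h and 156, 29.5 and 25.3 FPKM at 72 h. Ribosomal protein genes have many processed pseudogenes, and reads mapping to several places were not counted, so their single values are uncertain. Pseudogenes as a class had 129 down-regulated and 16 up-regulated members among 651 tested, against 9.05% and 10.2% of all genes tested. Whether these are pseudogenes of ribosomal protein genes was not tested.

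Ribosome assembly factors did not share this size of change. Of 37 tested, 4 (10.8%) were down-regulated, near the 9.05% of all genes tested, and none was up-regulated (median -0.18). Nucleophosmin (Npm1, log2 fold change -0.56) was among the 4. Groups did not overlap for 12 of the 37, all lower at 72 h, against 16.9% of all genes tested. The summed level of the list was 1097 to 1310 FPKM at 24 h and 986 to 1010 FPKM at 72 h. Subunits of the respiratory chain lay between the lists, with 14 of 88 down-regulated and 2 up-regulated (median -0.31). That count depended on the libraries and the scaling, since it was 3 without 24 h replicate 2, 5 and 6 without the other 24 h replicates, 7 without 72 h replicate 3 and 31 after scaling by the median of gene ratios.

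Targets of ATF4, the factor of the amino acid and integrated stress response, were down-regulated in 20 of 43 cases and up-regulated in 2, with a median of -0.50. Asparagine synthetase (Asns) lay at 177, 169 and 139 against 66.2, 88.96 and 68.00 FPKM (log2 fold change -1.12 ± 0.14, adjusted p = 0.00232). Enzymes of serine and one-carbon metabolism fell as well, Mthfd2 by 1.20 and Phgdh by 1.09 on the log2 scale. The 2 members that rose were the amino acid transporters Slc1a5 (0.74) and Slc38a2 (0.52). Atf4 itself was not called at 151, 177 and 172 and 161, 127 and 148 FPKM (adjusted p = 0.248).

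Glycolysis and hypoxia genes fell in part, with 8 of 36 down-regulated and 2 up-regulated. The count of 8 was 5 without 24 h replicate 1 and 4 without 24 h replicate 2, 72 h replicate 1 or 72 h replicate 3. Enolase (Eno1) lay at 1181, 1141 and 952 against 543, 697 and 617 FPKM (log2 fold change -0.82 ± 0.13), and the lactate exporter Slc16a3 fell by 0.99 on the log2 scale. Pfkfb3, which makes the activator of phosphofructokinase, rose instead, from 9.400, 10.7 and 12.8 to 31.3, 25.8 and 36.6 FPKM (log2 fold change 1.46 ± 0.16). Genes of the unfolded protein response changed little, with 2 of 27 (7.41%) down-regulated, and of 18 heat shock genes 3 (16.7%) were down-regulated. The down-regulated share of all genes tested was 9.05%.

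Complement genes were up-regulated at 72 h. The complement system is a cascade of plasma proteins that tags particles for uptake, and fibroblasts make several of its parts. Of 19 members tested, 13 were up-regulated and 2 down-regulated, with a median log2 fold change of 0.94. The central component C3 (chromosome 17, 57203970 to 57228136, minus strand) lay at 661, 593 and 620.4 FPKM in the 24 h replicates and at 2344, 1604 and 1909 FPKM in the 72 h replicates. The 24 h values were close to each other and all below the 72 h values (log2 fold change 1.63 ± 0.14, adjusted p = 0.00127). C4b rose from 95.1, 86.5 and 78.8 to 217, 185 and 199 FPKM (log2 fold change 1.20 ± 0.10), the proteases C1s1 and C1ra rose by 0.75 and 0.72, and the C1 inhibitor Serping1 by 0.79 on the log2 scale. The down-regulated members were the pentraxin Ptx3 (627, 731 and 565 against 418, 385 and 349.8 FPKM, log2 fold change -0.73) and the complement inhibitor Cd59a (-0.66).

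Macrophage transcripts rose over the same interval. Of the 24 macrophage markers listed, 15 were high enough to be tested, and 13 of these were up-regulated, with a median log2 fold change of 1.34. A marker low at 24 h could pass the limit for testing through its 72 h libraries alone, which favours rises in this count and median. The count was 8 without 72 h replicate 1. Their summed level over all 24 was 96.4 to 110.4 FPKM at 24 h and 180.1 to 353 FPKM at 72 h. The lysozyme gene Lyz2 lay at 58.1, 61.04 and 53.8 against 152, 93.6 and 172 FPKM (log2 fold change 1.22 ± 0.20). Laptm5 and the receptor of macrophage growth factor, Csf1r, rose by 1.76 and 0.69 on the log2 scale. Cd68 was not called, with 72 h replicate 2 at the level of the 24 h libraries (4.43, 4.58 and 2.55 against 8.69, 3.89 and 11.7 FPKM). The chains C1qa, C1qb and C1qc, which belong to both lists, rose by 1.69, 1.53 and 1.51 on the log2 scale. No gene on the list of lymphocyte and granulocyte markers was high enough to be tested, and 11 of its 17 genes were listed at 0 in all 6 libraries. The part of macrophage transcripts in the rise of complement and inflammatory genes was not tested.

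Acute-phase and chemokine genes rose selectively. Of 21 genes of the IL6 family and STAT3 response, 6 were up-regulated and 1 was down-regulated. Serum amyloid Saa3 lay at 17.3, 29.2 and 21.5 FPKM at 24 h and 173, 45.1 and 141 FPKM at 72 h (log2 fold change 2.20 ± 0.44, adjusted p = 0.0108). The siderophore-binding lipocalin Lcn2 lay at 3.26, 3.27 and 7.53 and 27.96, 13.4 and 30.97 FPKM (log2 fold change 2.26 ± 0.37). For both genes 72 h replicate 2 held the smallest rise. The cytokine Il6 itself overlapped between the groups, at 26.6, 31.8 and 21.96 and 58.4, 38.1 and 14.4 FPKM (adjusted p = 0.695), and its log2 fold change of 0.26 turned to -0.17 without 72 h replicate 1.

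Of 16 chemokines tested, 6 were up-regulated and none was down-regulated (3 up-regulated without 72 h replicate 1). The eosinophil attractant Ccl11 (eotaxin) rose from 2.38, 2.46 and 2.62 to 21.2, 10.5 and 12.6 FPKM (log2 fold change 2.29 ± 0.24, adjusted p = 0.00175). Ccl9, Ccl3 and Cx3cl1 rose by 1.37, 1.72 and 0.80 on the log2 scale. Cxcl12, the ligand of CXCR4, was just outside the limit (123, 141 and 168 against 248, 161 and 276 FPKM, adjusted p = 0.0548). The alarmin Il33 rose from 5.22, 7.02 and 2.88 to 18.4, 14.3 and 7.39 FPKM (log2 fold change 1.31 ± 0.36). Interferon-stimulated genes did not take part, with 1 of 34 up-regulated, the factor Irf1 (0.62).

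**Figure D4:**
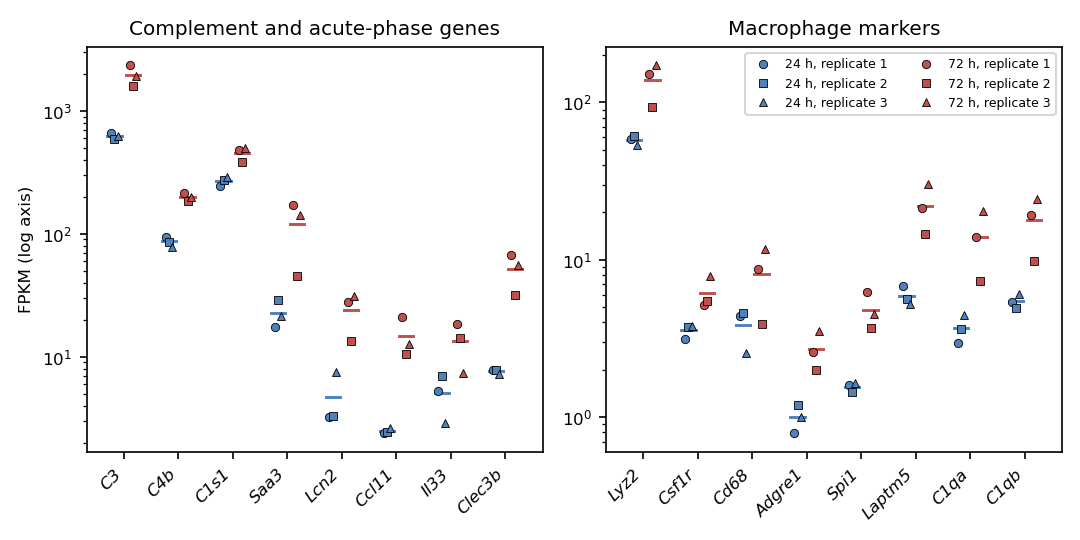
FPKM (log axes) of complement, acute-phase and related genes (left) and of macrophage markers (right) in the 6 inverse control libraries, with 24 h in blue and 72 h in red, the shape giving the replicate number and the bar the mean of 3. C3 lies between 593 and 661 FPKM at 24 h and between 1604 and 2344 FPKM at 72 h. Apart from Cd68, which was not called, the macrophage markers shown have all 72 h points above all 24 h points.

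Of the iCAF and myCAF genes used to tell fibroblast states apart, as many were called as not called, while 19.2% of all genes tested were called. Of 20 iCAF genes tested, 9 were up-regulated and 1 was down-regulated (median 0.55), and of 18 myCAF genes 2 were up-regulated and 7 down-regulated (median -0.51). The other 10 iCAF and 9 myCAF genes were not called, and the summed myCAF level overlapped between the times, at 29731 to 31739 FPKM at 24 h and 25957 to 32944 FPKM at 72 h. The iCAF members that rose included Clec3b, gelsolin and dermatopontin. Clec3b (tetranectin), a plasminogen-binding protein (chromosome 9, 123150946 to 123157432, plus strand), lay at 7.85, 7.76 and 7.198 FPKM at 24 h and at 67.6, 32.04 and 55.9 FPKM at 72 h. It had the largest log2 fold change of the list (2.63 ± 0.24, adjusted p = 0.00135). Gelsolin (Gsn) and dermatopontin (Dpt) rose by 1.04 and 0.99 on the log2 scale. The myCAF members that fell were mostly the contractile genes already given, together with Tnc and Thy1 (-0.56). Of 13 apCAF and antigen presentation genes, 2 (15.4%) were up-regulated and 1 (7.69%) was down-regulated, against 10.2% and 9.05% of all genes tested. Of 14 genes of quiescent PSC tested, 1 (7.14%) was up-regulated, the lipid chaperone Fabp5 (1.16), and 2 (14.3%) were down-regulated, Des and Hand2 (-0.51). Both shares were near those of all genes tested.

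Of 43 growth factor and receptor genes tested, 12 were up-regulated and 5 down-regulated, with a median log2 fold change of 0.22. The 5 became 2 without 24 h replicate 2, 24 h replicate 3 or 72 h replicate 1 and 3 without 72 h replicate 3. Of 16 genes of the IGF1 axis tested, some of which are on that list too, 6 were up-regulated and 1 was down-regulated (median 0.37). The growth factor Igf1 rose from 40.3, 36.2 and 30.2 to 148, 110.3 and 82.4 FPKM (log2 fold change 1.63 ± 0.20, adjusted p = 0.00227). Its upstream receptor, the growth hormone receptor Ghr, rose by 1.26, and the insulin receptor Insr by 0.76 on the log2 scale. The binding protein Igfbp2 fell from 381, 419.9 and 557 to 111, 193 and 241 FPKM (log2 fold change -1.37 ± 0.26). Another binding protein, Igfbp5, rose with the ligand, from 18.7, 15.5 and 15.1 to 27.6, 31.2 and 23.5 FPKM (log2 fold change 0.72 ± 0.14, adjusted p = 0.00880), so that the binding proteins did not move in 1 direction. The EGF receptor ligand Hbegf fell by 1.16 on the log2 scale.

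Of 14 genes of the imprinted gene network tested, 5 were up-regulated, and this count was 1 to 3 when any single library was left out. Plagl1, a zinc finger factor of that network (chromosome 10, 13060504 to 13131694, plus strand), lay at 6.02, 4.69 and 5.54 against 17.6, 19.7 and 21.6 FPKM (log2 fold change 1.77 ± 0.14). Its adjusted p of 0.00122 was among the smallest of all genes. Circadian clock genes were up-regulated in 6 of 16 cases (2 without 24 h replicate 2, 4 without 24 h replicate 1), led by the output factor Hlf (2.27, 1.92 and 1.603 against 8.04, 5.91 and 4.25 FPKM, log2 fold change 1.4). Of 17 glucocorticoid and FOXO target genes, 8 were up-regulated and 1 was down-regulated, and the count of 8 was 3 without 24 h replicate 2 and 5 without 24 h replicate 1, 24 h replicate 3, 72 h replicate 1 or 72 h replicate 3. The stress sensor Sesn3 rose by 0.86, whereas Fkbp5, a textbook glucocorticoid target, fell by 0.87 on the log2 scale.

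By size alone, the 15 largest rises with a mean of at least 5 FPKM at 72 h spanned log2 fold changes of 2.21 to 3.27. They held 11 protein-coding genes, and the other 4 were short RNAs that rested on at most 26 fragments per library. Beside those already given, the protein-coding genes included the prolactin receptor Prlr, at 1.12, 1.22 and 1.55 against 10.1, 7.13 and 9.64 FPKM (log2 fold change 2.39 ± 0.20). Autotaxin (Enpp2), the enzyme that makes lysophosphatidic acid, rose from 4.97, 7.26 and 5.16 to 42.05, 25.8 and 22.4 FPKM (log2 fold change 2.24 ± 0.24). The free fatty acid receptor Ffar2 rose by 2.33 and the transcriptional co-regulator Cited4 by 2.38 on the log2 scale.

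The 15 largest falls, from -2.54 to -1.69, were mostly mitotic genes. The peptide hormone gene Cck was an exception, at 40.4, 45.1 and 30.7 against 16.4, 10.3 and 8.68 FPKM (log2 fold change -1.71 ± 0.23). The first and second in size were Psmd10 and Lsm5, which belong to no list here. Psmd10, a proteasome chaperone, lay at 3.65, 6.09 and 6.74 against 0.429, 0.807 and 0.327 FPKM, and the 18 other libraries of the series held between 0.264 and 11.3 FPKM of it, the median being 0.555 FPKM. Lsm5, an RNA-processing factor, lay at 7.897, 8.397 and 6.53 against 2.06, 0.247 and 1.09 FPKM on 2 to 96 fragments. In the 18 other libraries Lsm5 ranged from 0.572 to 9.46 FPKM, and the highest value of Psmd10 outside the inverse controls came from a single standard 24 h co-culture library, replicate 3.

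The most similar libraries of the series were the standard controls, PSC in mono-culture at the same times but in other libraries. They differed from the inverse controls in RNA input, 450 ng against 120 ng, and in a medium change at time zero that the inverse controls did not have, so model, input and medium cannot be told apart. A difference in time change was tested for each of 13817 genes, and no gene passed (adjusted p at least 0.246, limma), with 389 genes under an unadjusted p of 0.05. In these 12 libraries the standard controls had 0 DEG over time as well (323 unadjusted), and 0 in a fit of their own (127 unadjusted). These fits ignored replicate numbers, although same-numbered standard libraries deviated together from their group means (correlations of 0.76, 0.67 and 0.47). With a replicate block, the standard controls alone again had 0 DEG (1155 unadjusted), as had the difference between models (1298 unadjusted). A difference below the limit does not show that the models changed alike, since the median standard error of a difference was 0.33 on the log2 scale (0.23 with the block).

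Of the 2516 DEG of the inverse controls, 2294 (91.2%) had the same sign of change in the standard controls, which share no library with them, against 70.8% of all genes tested. The size was smaller there for most lists. The median log2 fold change of mitosis and G2/M genes was -0.65 in standard and -1.34 in inverse controls, that of ribosomal protein genes -0.30 against -0.76, and that of complement genes 0.39 against 0.94. For adipocyte genes it was 0.09 against 1.43, and for contractile genes -0.20 against -0.84. Of 33 adipocyte genes tested, only 18 had the same sign of change in the standard controls. The medians of the pericyte and vascular smooth muscle list had opposite signs, 0.07 in standard and -0.73 in inverse controls. Of 82 ribosomal protein genes in the fit of the difference, 38 had an unadjusted p under 0.05, although none passed after adjustment. Plagl1 had a time change of -0.03 in standard controls and the smallest unadjusted p of the difference among the listed genes (1.8e-05, adjusted p = 0.246).

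The standard controls were uneven. Replicate 1 stood apart at both times, with a mean level of the adipocyte list on the log2 scale of 3.26 at 24 h and 2.75 at 72 h, under all other control libraries, and the highest levels of mitosis genes, 4.85 and 4.47. Replicate 2 held the most macrophage transcripts, with mean levels of 4.70 and 5.99. Without replicate 1 at both times the difference between models still had 0 DEG, and 1720 genes had an unadjusted p under 0.05. The inverse controls were more alike within each time, with mean levels of the adipocyte list of 4.14, 4.09 and 4.53 at 24 h and 5.78, 5.03 and 5.80 at 72 h.

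**Figure D5:**
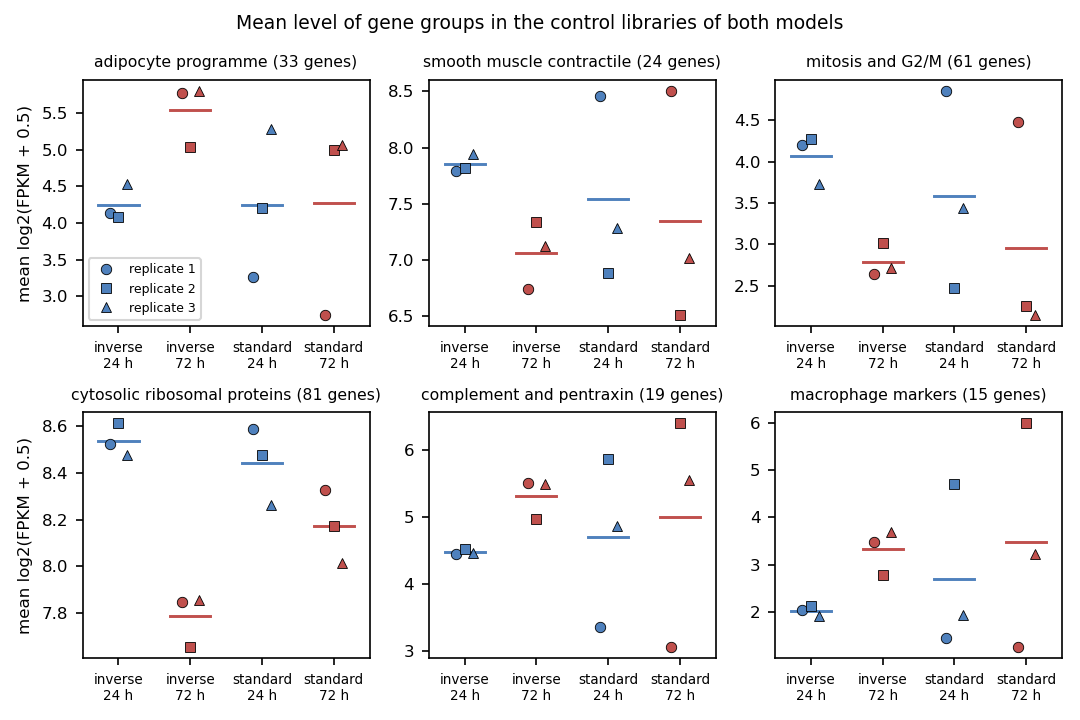
Mean level of 6 gene groups, as the mean of log2(FPKM + 0.5) over their members, in each of the 12 control libraries of the inverse and standard models at 24 h (blue) and 72 h (red), with the shape giving the replicate number and the bar the mean of 3. Inverse libraries of the same time lie close together. Standard replicate 1 (circles) is the lowest point of its time for adipocyte, complement and macrophage genes and the highest for contractile and mitosis genes.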

How the data were processed

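PolyA RNA of 24 PSC libraries was sequenced by the authors with 150 bp paired-end reads, of which the 6 inverse and 6 standard control libraries were used here. Per the submitters' processing notes and the study's methods, reads were mapped with HISAT2 2.0.5 to GRCm38, counted with featureCounts 1.5.0-p3 at default settings (without strand, so overlapping antisense genes cannot be told apart), and tested with DESeq2 1.20.0. The authors deposited FPKM values for 53801 genes, without counts. Low values were whole multiples of 1 fragment for 95.9% to 96.4% of those below 20 fragments (tolerance 0.01), from which 15932737 to 24798761 fragments per inverse control library were recovered with GENCODE M21 transcript lengths, which matched 53706 genes. An exact 0 means that no fragment was counted, which can also happen where reads map to several places, and is described as listed at 0.

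Genes above an FPKM of 1 in at least 3 libraries were tested on log2(FPKM + 0.5) with limma 3.58.1 (R 4.3.3), moderated with an intensity trend, two-sided, with Benjamini-Hochberg adjustment over all genes tested and a limit of 0.05. Fold changes on this scale understate low genes, and a low gene could pass the limit for testing through the 3 libraries of 1 time alone. DESeq2 was not run, since it needs counts. The method was tested on simulated data. Groups came from the sample titles. The difference between models used the 12 control libraries. The members and the 53 gene lists were chosen with earlier results of these data known, and genes were named by rule, the 15 largest changes in each direction with a mean of at least 5 FPKM and groups that do not overlap, and up to 4 members per list and direction, its first 2 members and the stained or studied genes. Members that a list left uncalled in a count of at most 5, Ncapg, Lep and C1ra were named after their values were seen. Pseudocounts, filters, scalings, the replicate block, voom on recovered fragments, other sets of libraries and leaving out each library were tried as alternatives. RefSeq promoters (GRCm38.p6) were searched on both strands. Co-cultured libraries were not compared, and some genes of the lists are not reported here.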

Additional observations from a re-analysis of the deposited data

How the results depend on the processing

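Across the alternatives, no DEG of the inverse controls changed sign except 1 under quantile normalization. The 2516 DEG (1331 up-regulated, 1185 down-regulated) became 1425 (761 and 664) without a filter on low values, which tests 24590 genes, 928 (454 and 474) at an adjusted p limit of 0.01, and 567 (341 and 226) with an absolute log2 fold change above 1 in addition. They became 88 (12 and 76) with the spread of all 12 control libraries and 225 (59 and 166) with that of all 24 libraries. Leaving out 1 library gave 1243 to 2369 DEG, 664 to 1259 up-regulated and 564 to 1110 down-regulated. The counts stayed within 1.5 times under pseudocounts of 1 and 0.1, a mean FPKM above 5, other scalings, no intensity trend and voom on recovered fragments (3067 DEG). Gene lists with at most 4 members called moved by at most 3 members when 1 library was left out. Log2 fold changes of genes that were not called turned sign for Col1a1 (0.027 under quantile normalization), Chst11 (-0.060 to 0.23 when 1 library was left out, -0.060 without 24 h replicate 3), Il6 (-0.17 to 0.82, -0.17 without 72 h replicate 1) and Rpl24 (-0.70 to 0.26, 0.26 without 72 h replicate 1), and the cause was not tested. The difference between models had 0 DEG in all settings except 1 DEG with all 24 libraries (Gm4332) and 1 without inverse 24 h replicate 3 (Gm22933), so leaving out 1 library gave 0 to 1. The standard controls alone had 0 DEG over time also with the replicate block (1155 genes under an unadjusted p of 0.05) and with replicates 2 and 3 alone (723), settings chosen after seeing the data, as was the difference without standard replicate 1. The deviations of same-numbered inverse libraries from their group means correlated weakly, at -0.02, -0.00 and 0.15. The labels do not say whether a replicate number marks a shared isolation, and these correlations cannot settle it. A replicate block gave 1993 DEG (1019 and 974), of which 1881 were among the 2516, and 0 DEG for the difference between models, where the standard numbers correlated at 0.76, 0.67 and 0.47 (1298 unadjusted). Depth limits genes near an FPKM of 1, and with 3 against 3 libraries an exact permutation test cannot go below p = 0.10, so no single gene was tested that way.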

Other observations

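Several gene groups outside the comparisons above changed in a few members only. Of 33 immediate early genes tested, which cells switch on within minutes of a stimulus, 7 were up-regulated and none was down-regulated, with a median log2 fold change of 0.21. Arc and the ERK feedback inhibitor Spry4 rose most, by 1.48 and 1.15 on the log2 scale, and the count was 2 without 24 h replicate 2, 4 without 24 h replicate 1 or 72 h replicate 1 and 12 without 72 h replicate 3. Caveolin 1 (Cav1), the coat protein of caveolae, rose from 148, 143 and 151 to 328, 207 and 318 FPKM (log2 fold change 0.92 ± 0.16, adjusted p = 0.00717), and Cav2 rose by 0.94, whereas the 3 cavins of the coat were not called. Among adhesion molecules the laminin receptor subunit Itga6 rose from 3.96, 2.13 and 4.46 to 13.7, 11.99 and 16.9 FPKM (log2 fold change 1.91 ± 0.25), while the fibronectin receptor subunit Itga5 fell by 0.60 and Itgb1, the partner of both, by 0.41 on the log2 scale. Of 24 adhesion genes tested, 2 were up-regulated and 3 down-regulated, shares near those of all genes tested (10.2% and 9.05%).

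The next counts stand beside shares of 10.2% up-regulated and 9.05% down-regulated among all genes tested. Genes of vitamin A and D handling had 1 of 16 members up-regulated and 3 down-regulated, and the retinoid-induced gene Rarres1 fell by 1.06 on the log2 scale. Of 26 antioxidant genes of the NRF2 group, 5 were up-regulated and 2 down-regulated. Prostaglandin genes had 2 of 12 members down-regulated, Notch genes 1 of 9 down-regulated, and genes of iron, lysosome and phagocytosis 2 of 26 up-regulated and 1 down-regulated. The iron exporter Slc40a1 was one of those that rose (1.35), with the cathepsin Ctss (1.42), a macrophage marker. Among RNA classes, 639 other noncoding RNAs tested held 63 up-regulated and 15 down-regulated members, and 208 small or structural RNAs held 21 and 3. The up-regulated shares were near the 10.2% of all genes tested, and the down-regulated shares below the 9.05% of all genes tested. The small RNAs rested on few reads, with a median of 13 fragments in their highest library.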
